A study of Mus musculus with 2 samples.

Results

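The loci described here are the 8 genes of the miR-204/miR-211 and miR-34/miR-449 families, among 1973 miRNA genes counted in the midbrain of mouse embryos. They were chosen by gene symbol, as Mir204 and Mir211 for the first family and Mir34a, Mir34b, Mir34c, Mir449a, Mir449b and Mir449c for the second, and every symbol matched 1 row of the deposited tables. The study sequenced small RNA (stated size range under 30 nt) from B6NCrl midbrain at embryonic day 14.5, and held 1 group with 2 biological replicates, so that no contrast between conditions exists. No treatment or engineered allele is named in the labels. Each replicate is labelled as a single midbrain of pup 1 of pregnancy 2, on different collection days, yet the sex is given as pooled and the donor identifier is shared, so the SDs here may not measure variation between animals. The libraries held 7302633 and 3966727 reads on the annotated strand of miRNA genes in replicates 1 and 2.

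Both families are known from epithelia at the fluid spaces of the brain. Mir204 is abundant in the choroid plexus, the secretory tissue that makes cerebrospinal fluid, and in the pigment epithelium of the eye, while Mir211 is known from pigment cells. The miR-34 and miR-449 genes act together in multiciliated cells, such as those of the ependyma, choroid plexus and airway, where their loss impairs the formation of motile cilia. Mir34a is in addition a widely expressed target of the tumour suppressor p53. A miRNA recognises its targets mainly through its seed, bases 2 to 8 of the mature strand.

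The mature sequences of the 5′ arms show the shared bases that define the families. In each line the seed is in capitals, and the sequences are those of RefSeq on GRCm38.p6, the assembly that mm10 denotes.
miR-204-5p: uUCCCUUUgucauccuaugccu
miR-211-5p: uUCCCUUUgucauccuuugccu
miR-34a-5p: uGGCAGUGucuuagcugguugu
miR-34b-5p: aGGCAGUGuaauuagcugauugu
miR-449a-5p: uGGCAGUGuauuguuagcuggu
miR-449c-5p: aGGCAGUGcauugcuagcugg

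RefSeq entries were found for 7 of the 8 loci, with 13 mature sequences; Mir449b and the 5′ arm of Mir34c were not among them. The 6 printed 5′ arms carried 2 seeds, UCCCUUU for miR-204/miR-211 and GGCAGUG for miR-34/miR-449. miR-204-5p and miR-211-5p were identical at 21 of 22 positions and differed by A17U, counted from 1 at the 5′ end with the miR-204-5p base first. miR-34a-5p and miR-449a-5p were identical at 15 of 22 positions, with the first difference at position 10. miR-34b-5p and miR-449c-5p were less alike, identical at 10 of 21 positions compared, with the first difference at position 9. Among the 3′ arms only those of Mir34b and Mir34c shared a seed, shown in capitals below, and they were identical at 17 of 22 positions.
miR-34c-3p: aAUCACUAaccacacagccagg
miR-34b-3p: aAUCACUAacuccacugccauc

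Outside the families, the seed of the 5′ arms of Mir204 and Mir211 occurred in 1 further mature sequence of the RefSeq table, miR-7670-3p, whose gene had no sense read in either library. The seed of the 3′ arm of Mir204 also occurred in miR-7684-5p, whose gene likewise had no read. The GGCAGUG seed occurred in no mature sequence of the table outside the miR-34/miR-449 family.

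The deposited count is one number per hairpin and does not separate its arms. Both arms are marked in capitals in the hairpins of Mir204, the most abundant of the 8 loci, and Mir449a, the one that differed most between the libraries among those detected.
Mir204: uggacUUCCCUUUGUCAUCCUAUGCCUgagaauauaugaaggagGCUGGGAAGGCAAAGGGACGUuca
Mir449a: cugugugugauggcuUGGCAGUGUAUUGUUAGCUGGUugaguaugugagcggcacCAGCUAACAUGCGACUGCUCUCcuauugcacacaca

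Reads with several possible positions in the genome were not assigned to genes, and they made up 36.2% and 36.9% of all reads in replicates 1 and 2. No hairpin of the 8 shared an exact stretch of 20 nt with any other of 2202 annotated miRNA hairpins. The longest stretch was the 17 nt common to Mir204 and Mir211, which spans most of their 5′ arms and the base before them, and each other locus shared between 11 and 14 nt with its closest match. Reads that lie within this stretch could still have been lost at Mir204 and Mir211, and copies outside annotated hairpins were not searched. All reads at the 8 loci lay on the annotated strand. The opposite strand held 0 reads beside 15297 sense reads in replicate 1, which allows a share of up to 0.0196%, and 0 beside 6222 in replicate 2, which allows up to 0.0482%.

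The loci lie at 5 places in the genome. In mm10 coordinates and GENCODE M21 annotation, Mir204 (ENSMUSG00000065507.2) is at chr19:22750605-22750672 on the plus strand. It lies within an intron of the ion channel gene Trpm3. Mir211 (ENSMUSG00000065585.1) is at chr7:64205806-64205911, also on the plus strand and within an intron of the related channel gene Trpm1. Mir34a (ENSMUSG00000065493.1) is at chr4:150068454-150068555 on the plus strand, within an exon of Gm37795, an unconfirmed transcript.

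Mir34b and Mir34c form a cluster on the minus strand of chromosome 9. Mir34b (ENSMUSG00000065492.1) is at chr9:51103562-51103645 and Mir34c (ENSMUSG00000065587.1) at chr9:51103034-51103110, with 451 nt between them. Both lie opposite an intron of Btg4, so they have no host gene on their own strand in this annotation. Mir449a, Mir449b and Mir449c lie on the plus strand of chromosome 13 in an intron of Cdc20b, a gene known from multiciliated cells. Mir449a (ENSMUSG00000065575.1) is at chr13:113037534-113037624 and Mir449b (ENSMUSG00000078027.1) at chr13:113037419-113037498, with 35 nt between them. Mir449c (ENSMUSG00000076146.1) is at chr13:113035983-113036091, 1327 nt before Mir449b.

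All 8 loci had sense reads in both libraries. Detection was defined as 10 or more sense reads in both replicates, and 6 of the 8 loci met it, against 20.1% of all 1973 loci. Any read in either library was found at 37.8% of all loci. The median log2(CPM + 1), where CPM is the sense count scaled by the sense total of the library, was 5.24 over the 8 loci and 0 over all loci. Together the 8 loci took 0.209% of the sense reads in replicate 1 and 0.157% in replicate 2. Mir204, Mir34c and Mir449a held 95.2% of those reads in replicate 1 and 93.2% in replicate 2, so each seed family was carried by 1 or 2 genes.

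**Figure D1:**
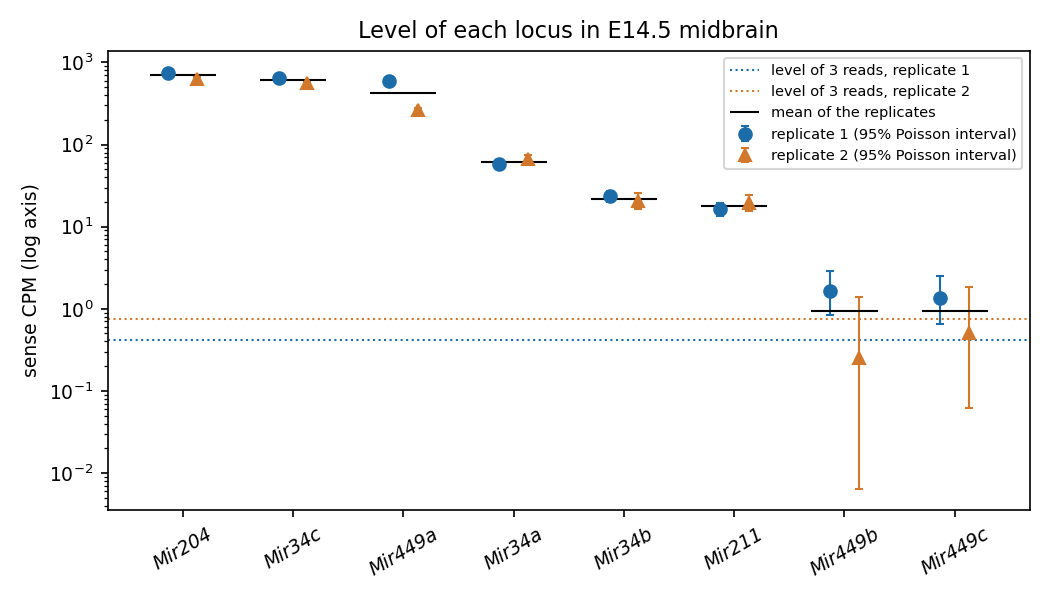
Sense CPM (log axis) of each locus in replicate 1 (circles) and replicate 2 (triangles), with exact 95% Poisson intervals, the mean of the replicates (black bars) and the level of 3 reads in each library (dotted lines). Mir204, Mir34c and Mir449a stand at 265 CPM or more in both replicates, the next 3 loci between 16.3 and 66.0 CPM, and Mir449b and Mir449c near or under the level of 3 reads in replicate 2.

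CPM values were not divided by length, because the mature products are of like length (21 to 23 nt in the RefSeq entries). How well each sequence was captured into the library was not measured, so level differences between loci are differences in reads.

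Mir204 was the most abundant of the 8 loci. It had 5507 reads (754 CPM) in replicate 1 and 2523 reads (636 CPM) in replicate 2, a mean of 695 ± 83.5 CPM (SD, n = 2). It ranked in place 107 of all loci by mean CPM, between Mir320 (695 ± 15.2 CPM) and Mir25 (680 ± 125 CPM), from which it did not differ beyond the spread. Its paralog Mir211 had 119 reads (16.3 CPM) in replicate 1 and 77 reads (19.4 CPM) in replicate 2, a mean of 17.9 ± 2.20 CPM, and ranked in place 293. The replicates of Mir204 and those of Mir211 lay far apart and did not overlap. Within a library, Mir204 reads outnumbered Mir211 reads 46.3-fold in replicate 1 (95% interval 38.6 to 56.0, from the exact Clopper-Pearson interval of the share) and 32.8-fold in replicate 2 (26.1 to 41.7). Mir204 therefore made up 97.5% ± 0.598 of the reads of the family. Such intervals, and limits from a count of 0, hold for counting error alone, since PCR copies of 1 molecule were not told apart.

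Mir34c led the miR-34/miR-449 family. It had 4767 reads (653 CPM) in replicate 1 and 2224 reads (561 CPM) in replicate 2, a mean of 607 ± 65.1 CPM and place 116 of all loci. It stood between Mir350 (624 ± 4.86 CPM) and Mir1193 (592 ± 19.3 CPM). Mir34c followed Mir204 closely in both libraries. The ratio of Mir204 to Mir34c was 1.16 in replicate 1 (interval 1.11 to 1.20) and 1.13 in replicate 2 (1.07 to 1.20), a mean of 1.14 ± 0.0147. The order of these loci was thus the same in each library, although their means differed by little more than the SD of either.

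Mir34b, from the same cluster as Mir34c, was far lower. It had 171 reads (23.4 CPM) in replicate 1 and 81 reads (20.4 CPM) in replicate 2, a mean of 21.9 ± 2.12 CPM and place 284. Mir34c exceeded Mir34b 27.9-fold in replicate 1 (interval 23.9 to 32.7) and 27.5-fold in replicate 2 (22.0 to 34.7). This ratio of 27.7 ± 0.297 varied little between the replicates. A gap of this size was not rare among neighbours: of 96 pairs of adjacent detected loci on 1 strand within 10 kb, 40.6% were over 10-fold apart in mean CPM, and 25.0% were further apart than Mir34c and Mir34b. Loci with copies elsewhere can lose reads with several possible positions, which may widen some of these gaps. Such pairs were not set aside.

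Mir34a, on chromosome 4, had 422 reads (57.8 CPM) in replicate 1 and 262 reads (66.0 CPM) in replicate 2. Its mean of 61.9 ± 5.84 CPM put it in place 237, beside Mir129-1 (63.1 ± 3.32 CPM) and Mir1249 (59.2 ± 8.11 CPM). Mir34a lay below Mir34c and above Mir34b in both libraries. Mir34c exceeded it 11.3-fold in replicate 1 (interval 10.2 to 12.5) and 8.49-fold in replicate 2 (7.47 to 9.69). Mir34a exceeded Mir34b 2.47-fold in replicate 1 (2.06 to 2.97) and 3.23-fold in replicate 2 (2.51 to 4.20).

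Mir449a, the leading gene of the Cdc20b cluster, varied most between the replicates of the 6 detected loci. It had 4289 reads (587 CPM) in replicate 1 and 1052 reads (265 CPM) in replicate 2, a mean of 426 ± 228 CPM with a coefficient of variation of 53.4%. Mir34c, the other abundant member of the family, had a coefficient of variation of 10.7%. By mean CPM Mir449a ranked in place 138, next to Mir20b (429 ± 92.7 CPM) and Mir375 (411 ± 16.9 CPM), but it held place 119 in replicate 1 and place 169 in replicate 2. Its rank therefore depends on which library is read.

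Mir449b and Mir449c were at the limit of what the depth can show. Mir449b had 12 reads in replicate 1, or 1.64 CPM (exact Poisson 95% interval 0.849 to 2.87), and 1 read in replicate 2, or 0.252 CPM (0.00638 to 1.40). Mir449c had 10 reads in replicate 1, or 1.37 CPM (0.657 to 2.52), and 2 reads in replicate 2, or 0.504 CPM (0.0611 to 1.82). The intervals of the pair overlap in both libraries, so their order was not resolved. The level of 3 reads was 0.411 CPM in replicate 1 and 0.756 CPM in replicate 2. Mir449a exceeded Mir449b, its neighbour in the same intron, 357-fold in replicate 1 (interval 204 to 692), and Mir449c 429-fold (233 to 895). In replicate 2 these ratios rest on 1 and 2 reads, with lower bounds of 188 and 145.

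By mean CPM the order of the 8 loci was Mir204, Mir34c, Mir449a, Mir34a, Mir34b, Mir211, Mir449b and Mir449c. By the spread over the replicates, neighbours in this order that were not clearly apart were Mir204 and Mir34c, Mir34c and Mir449a, and Mir449b and Mir449c. The replicates of Mir204 and Mir34c overlapped, with Mir204 at 636 CPM in replicate 2 and Mir34c at 653 CPM in replicate 1. The means of Mir34c and Mir449a lay within the SD of Mir449a. Within each library Mir34c was nevertheless higher, with Mir449a to Mir34c at 0.900 in replicate 1 (interval 0.863 to 0.938) and 0.473 in replicate 2 (0.439 to 0.509). Mir34b and Mir211 were also close: their ratio was 1.44 in replicate 1 (interval 1.13 to 1.83) and 1.05 in replicate 2 (0.760 to 1.46), the second of which includes 1.

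Summed over genes, the miR-34/miR-449 family reached 1324 CPM in replicate 1 and 913 CPM in replicate 2, a mean of 1119 ± 291 CPM. The miR-204/miR-211 family had 770 CPM in replicate 1 and 655 CPM in replicate 2, a mean of 713 ± 81.3 CPM. The ratio of miR-34/miR-449 to miR-204/miR-211 reads was 1.72 in replicate 1 (interval 1.66 to 1.78) and 1.39 in replicate 2 (1.32 to 1.47). Without Mir449a the ratio was 0.957 in replicate 1 (0.921 to 0.993) and 0.988 in replicate 2 (0.936 to 1.04). No other locus was left out in this way. The excess is not particular to Mir449a, since Mir34c held more of the family's reads in both libraries.

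**Figure D2:**
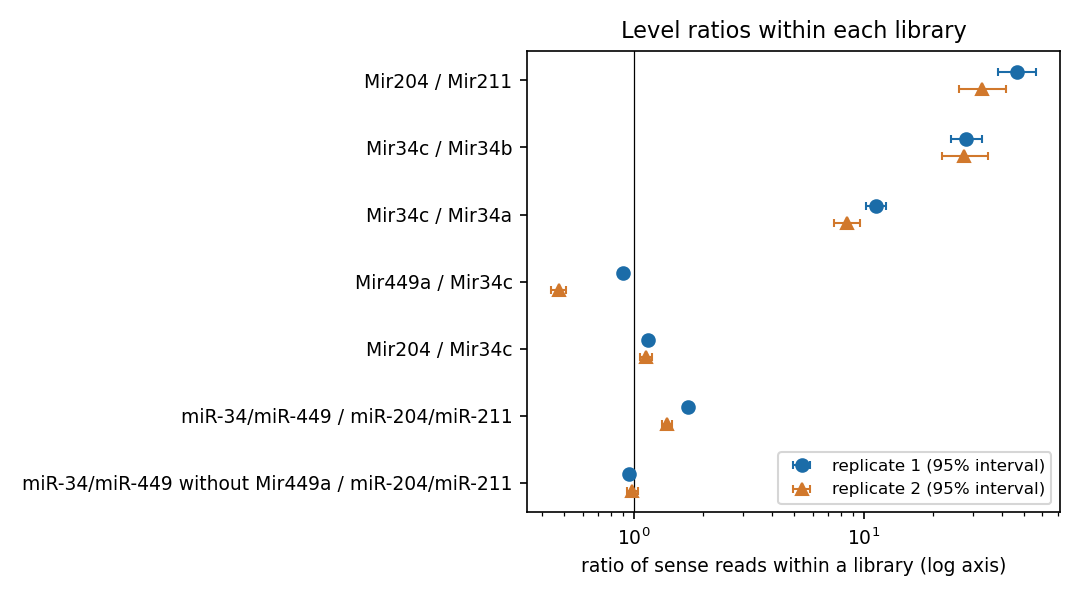
Ratios of sense reads between loci or families within replicate 1 (circles) and replicate 2 (triangles) on a log axis, with exact 95% intervals for counting error. The ratio of Mir34c to Mir34b stayed near 27.7 in both libraries, whereas Mir449a to Mir34c was 0.900 in replicate 1 and 0.473 in replicate 2.

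The make-up of the miR-34/miR-449 family differed between the libraries. Mir449a held 44.3% of the family's reads in replicate 1 (interval 43.4 to 45.3) and 29.0% in replicate 2 (27.6 to 30.6). Mir34c held 49.3% in replicate 1 (48.3 to 50.3) and 61.4% in replicate 2 (59.8 to 63.0). The share of Mir34a was 4.36% in replicate 1 (3.97 to 4.79) and 7.23% in replicate 2 (6.41 to 8.13). Mir34b held 2.00% ± 0.331 of the family's reads, and Mir449b and Mir449c together fell short of 1% in each library. The ratio of Mir449a to Mir34c was 0.900 in replicate 1 (0.863 to 0.938) and 0.473 in replicate 2 (0.439 to 0.509), intervals that do not overlap. With 1 library on each side, this compares the libraries and has no replicate check.

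**Figure D3:**
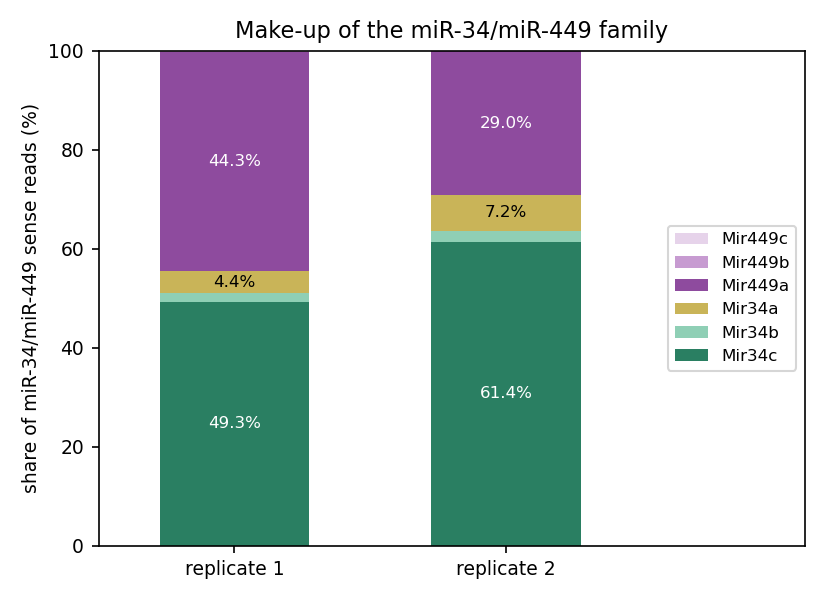
Share of the sense reads of the miR-34/miR-449 family (%) held by each gene, stacked to 100% for replicate 1 and replicate 2. Mir449a takes 44.3% in replicate 1 and 29.0% in replicate 2, and Mir34c is the largest part of both bars.

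Between the replicates, after TMM scaling of the library sizes, 1 of the 6 detected loci was over 1.5-fold apart, against 16.6% of all 397 detected loci, so that the count of loci was at the background. Over 1.5-fold lower in replicate 2 were 9.57% of all detected loci, and over 2-fold lower were 3.78%. The locus was Mir449a, with a log2(replicate 2/replicate 1) of -1.24 (exact binomial 95% interval -1.34 to -1.14), a level 2.37-fold higher in replicate 1. The log2 ratios of the other 5 detected loci lay between -0.34 for Mir204 and 0.16 for Mir211. Mir34c stood at -0.31 (-0.39 to -0.24), Mir34b at -0.29 (-0.69 to 0.10) and Mir34a at 0.10 (-0.13 to 0.32). The median size of the log2 ratio over all detected loci was 0.23.

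Mir449a was also read against loci with at least 1000 reads in each library. It passed this minimum narrowly, with 1052 reads in replicate 2. Of the 169 loci with at least 1000 reads in each library, 4.73% were over 1.5-fold apart in either direction and 1.78% were over 2-fold lower in replicate 2, and none of them had a lower ratio than Mir449a. The 3 loci in question, named after their values were seen, were Mir449a, Mir181b-2 and Mir1298, with log2 ratios of -1.24, -1.05 and -1.03. This minimum of reads was likewise chosen after the values were seen. It removed loci that were low in replicate 2. Among these were Mir451a (3264 and 489 reads in replicates 1 and 2, log2 ratio -1.95) and Mir214 (1636 and 251 reads, -1.92). The lowest place of Mir449a among the loci kept therefore rests in part on the minimum itself. Among all 397 detected loci 9 had a lower ratio than Mir449a.

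**Figure D4:**
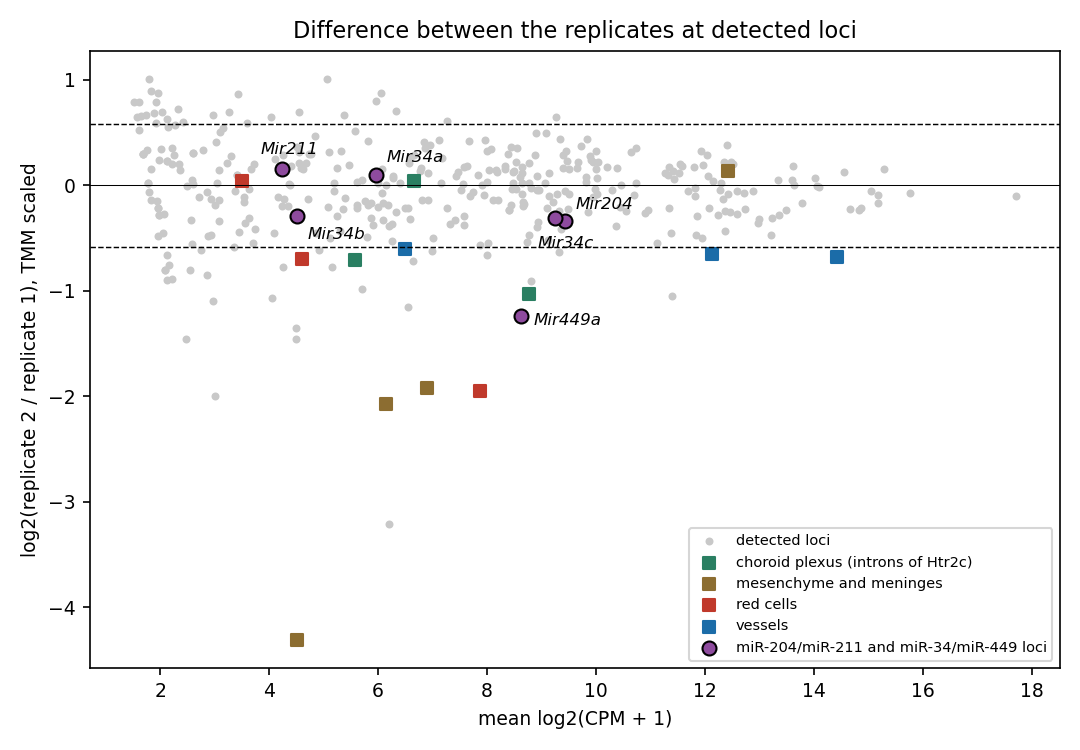
Log2 ratio of replicate 2 to replicate 1 after TMM scaling (vertical axis) against mean log2(CPM + 1) for the 397 detected loci (grey), with the miR-204/miR-211 and miR-34/miR-449 loci (purple circles) and 4 marker lists (squares); dashed lines mark 1.5-fold. Mir449a lies at -1.24 and the other labelled loci lie within 1.5-fold, while loci of the mesenchyme and red cell lists reach -4.31 and -1.95.

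Most detected marker miRNAs of mesenchyme, red cells and vessels were, like Mir449a, lower in replicate 2, with the exception of Mir140 and Mir486. Their part in the difference of Mir449a was not tested. In bulk tissue, fewer cells of a type and less RNA per cell cannot be told apart. Of the 6 mesenchyme and meninges loci 4 were detected. Of these, 3 were over 1.5-fold lower in replicate 2, against 9.57% of all detected loci, with Mir199b at -4.31, Mir483 at -2.07 and Mir214 at -1.92. Mir140, the most abundant of the list at 5499 ± 617 CPM, stood at 0.13, and Mir199a-1 was lowest with 2 reads in replicate 1 and 1 in replicate 2. Mir199a-1 has a numbered copy, Mir199a-2, so unassigned reads with several possible positions may be missing at both. Because of Mir140 the summed level of the list was 5522 CPM in replicate 1 and 6040 CPM in replicate 2. Mir214 had the next highest mean of the list, 144 ± 114 CPM.

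The red cell list, with 3 of 3 loci detected, had a summed level of 486 CPM in replicate 1 and 153 CPM in replicate 2. Its leading miRNA Mir451a had a log2 ratio of -1.95, Mir144 of -0.70 and Mir486, the lowest, of 0.04. The vessel list, with 3 of 3 counted loci detected and Mir126b without a count of its own here, had a summed level of 32566 CPM in replicate 1 and 21781 CPM in replicate 2. Its endothelial miRNA Mir126a stood at -0.68, the smooth muscle miRNA Mir143 at -0.65 and Mir145a, the lowest, at -0.60. No marker of these lists was at 0 reads in either library.

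The neural list stayed closer between the replicates. Of 9 loci 7 were detected, and none of these was over 1.5-fold apart. It was led by Mir149 (17513 ± 704 CPM) and Mir137 (12716 ± 1726 CPM), with Mir124a-3 lowest at 1.92 ± 0.577 CPM. Its summed level was 30789 CPM in replicate 1 and 34611 CPM in replicate 2, with a median log2 ratio of 0.02. Mir124a, Mir9 and Mir128 stand in the list as numbered gene copies. Reads with several possible positions in the genome were not assigned, so low counts at such copies do not show low levels of their products. The order and the sum of the list carry the same limit.

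A further list known from choroid plexus holds miRNA genes in introns of Htr2c, the serotonin receptor gene that is highly expressed there. All 5 had reads and 3 were detected. Mir1298 led at 600 CPM in replicate 1 and 315 CPM in replicate 2, a level close to that of Mir449a, followed by Mir448 (101 ± 6.81 CPM), with Mir1912 lowest at 1.15 ± 1.27 CPM. Of the 3 detected loci 2 were over 1.5-fold lower in replicate 2, against 9.57% of all detected loci. These were Mir1298 at -1.03 and Mir1264 at -0.71, whereas Mir448 stood at 0.04. Its summed level was 758 CPM in replicate 1 and 461 CPM in replicate 2. Mir204 and these loci therefore did not share 1 ratio between the libraries, Mir204 having -0.34 (interval -0.41 to -0.27). The series holds no other tissue and no mRNA, so whether choroid plexus was in the samples could not be checked against its defining genes.

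The remaining lists concern cilia and p53. Both Mir129 genes, whose product acts in cilium assembly, were detected, Mir129-2 at 173 ± 15.1 CPM and Mir129-1 at 63.1 CPM. These genes are numbered copies, so unassigned reads with several possible positions may be missing at both. The Mir182, Mir183 and Mir96 cluster of sensory cells was detected at 3 of 3 loci, with Mir182 at 1399 ± 75.6 CPM, Mir183 at 983 ± 7.80 CPM and Mir96 lowest at 401 ± 1.75 CPM. None of these 5 loci was over 1.5-fold apart between the replicates. Their median log2 ratios were -0.06 for the Mir129 genes and -0.11 for the sensory cluster, beside -1.24 for Mir449a.

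Of 9 further miRNA genes of the p53 pathway 7 were detected, led by Mir15a (5330 ± 379 CPM) and Mir143 (4559 ± 1222 CPM), with Mir215 lowest at 0.710 ± 0.423 CPM. Mir194-1, Mir194-2 and Mir16-1 of this list are numbered gene copies, so unassigned reads with several possible positions may be missing at them. The count detected, the order and the median level of the list carry this limit. Of the 7 detected loci of the list 2 were over 1.5-fold lower in replicate 2, against 9.57% of all detected loci. These were Mir143 and Mir145a, which also stand in the vessel list. Mir34a, with a log2 ratio of 0.10, stood beside Mir192 at 0.14, Mir107 at 0.13 and Mir194-2 at 0.35, while Mir15a had -0.24 and Mir16-1 -0.46. Mir34b at -0.29 and Mir34c at -0.31 were, unlike Mir34a, lower in replicate 2. The median log2 ratio of the detected loci of the list was -0.24. The median log2(CPM + 1) of the list was 6.87, against 5.97 for Mir34a, 4.52 for Mir34b and 9.24 for Mir34c.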

How the data were processed

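Small RNA from E14.5 midbrain was measured in 2 libraries of 1 group. The authors deposited raw read counts per miRNA gene for both strands, the annotated strand and the opposite strand, made on assembly mm10 with annotation M4, per the file listings they deposited; neither aligner nor counter is given in the sources used here. Reads not assigned to a miRNA gene (58.3% and 57.7% of reads in replicates 1 and 2), which include those with several possible positions, were left out. Symbols came from GENCODE M21 for 1894 of 1973 loci. CPM used the sense total, and 1 read equalled 0.137 and 0.252 CPM. Replicate ratios used TMM (edgeR 4.0.16, R 4.3.3), and intervals came from scipy 1.17.1. The scaling was tried only on simulated Poisson counts with equal numbers of loci raised and lowered. Spread beyond counting error and unequal numbers of raised and lowered loci were not simulated. A single group allows no test of conditions, and no p-value is given. The named loci were all 8 members, their neighbours in mean CPM, and, of each list, the lowest locus and the 2 highest. Other loci were chosen after their values were seen. Members and lists were chosen with earlier results of these data known. Alternatives were other scalings (DESeq2 1.42.0 size factors, plain totals), count minimums, strands, totals, 1 added read and each replicate left out.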

Additional observations from a re-analysis of the deposited data

How the results depend on the processing

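The levels depend on the total they are divided by. Without Mir99a, the most abundant locus, in the total, the miR-34/miR-449 sum was 1424 CPM and the miR-204/miR-211 sum 907 CPM; over all reads of the table, these were 460 and 293 CPM. Leaving out Mir449a turned the ratio of miR-34/miR-449 to miR-204/miR-211 to 0.973, against 1.56 with it. No other locus, such as the more abundant Mir34c, was left out of this ratio. The median log2(CPM + 1) of the 8 loci was 7.30 over detected loci and 5.21 with both strands counted. With 1 replicate left out at a time, the miR-34/miR-449 sum lay between 913 and 1324 CPM and that of miR-204/miR-211 between 655 and 770 CPM, and the number of detected loci between 6 and 8. With replicate 1 left out, Mir449a stood at 265 CPM, against a mean of 426 CPM. The count of detected loci was 4 with a minimum of 100 reads, 6 with 3 reads or 1 CPM, and 8 with 10 reads in either replicate. The count of loci over 1.5-fold apart between the replicates was 1 under each scaling tried, at 2-fold, and among loci with at least 1000 reads. With plain totals the log2 ratios between replicates were -0.25 for Mir204 and -0.22 for Mir34c, and 0.09 for the median detected locus. No paired analysis was possible because there is a single group. Depth limits Mir449b and Mir449c, whose counts in replicate 2 were 1 and 2 reads.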
